A study of Mus musculus with 12 samples.

Results

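Pooled S-shaped bodies were compared with collecting duct in the embryonic mouse kidney. The comparison takes the 3 arrays of pooled S-shaped bodies (replicates 1, 2 and 3) and the 3 arrays of collecting duct (replicates 1, 2 and 3), chosen by their titles, out of 12 arrays in all, and every one of the 12422 probe sets that is not a control. All samples came from wild-type Swiss Webster embryos of unknown sex at stage E14.5 of embryonic development, microdissected by shape and measured on Affymetrix MG_U74Av2 arrays after a pair of T7 amplification rounds. Each S-shaped body sample was a pool of 20 structures, whereas each collecting duct sample was not pooled, so structure and pooling cannot be told apart here. The other 6 arrays, 3 of single S-shaped bodies without pooling and 3 of renal vesicles in pools of 20, are given as levels beside the comparison. The renal vesicle arrays also enter the fit, so they share in the filter and in the spread behind every SE and p-value. Collecting duct serves as the common reference of the study, and the question is which genes set the later nephron precursor apart from the ductal epithelium it will join. The labels describe biological replicates without naming the embryos behind them, so the p-values measure the spread between the samples in the fit, renal vesicles included.

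The metanephric kidney has a pair of epithelial lineages. Nephrons arise from cap mesenchyme, which condenses, turns into an epithelial renal vesicle and folds through a comma shape into the S-shaped body, whose proximal end forms podocytes and parietal cells and whose other limbs form tubule segments. Endothelial and mesangial precursors enter the vascular cleft of the S-shaped body at this stage. The collecting duct instead grows by branching of the ureteric bud and is epithelial from the start.

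Levels are given as log2 of quantile normalized intensity plus a pseudocount of 7.22, so that a normalized signal at or below 0 reads 2.85. Changes are S-shaped body minus collecting duct, tested with limma and called at a Benjamini-Hochberg adjusted p under 0.05. A change is in log2 units unless it is given as a fold, and its error (±) is the SE of the fit. A group that reads 2.85 on all its arrays adds no spread to the fit, so SE and p-value can understate the spread there. For Oit1 and Lamb3 this held in S-shaped bodies and renal vesicles, and for Klf2 in collecting duct and renal vesicles. Some counts are repeated on the deposited scale, which leaves out the normalization between arrays and shifts the median change of all probe sets to -0.46. Where a gene did not exceed background on any array of the dimmer group, "at least N-fold" gives the distance from the brighter group to the background level. Mean deposited intensity was 226 ± 19.4 on S-shaped body arrays and 304 ± 51.0 on collecting duct arrays (SD, n = 3 each), and 56.7% and 56.1% of probe sets exceeded background. Arrays of 1 group correlated across probe sets at 0.968 to 0.972 among S-shaped bodies and 0.973 to 0.978 among collecting ducts. Some control ratios of RNA and amplification quality differed between the groups, in opposite directions. The 3′ to middle ratio of beta-actin was 3.67 ± 0.385 for S-shaped bodies, against 8.25 ± 2.09 for collecting duct, and the 3′ to 5′ ratio of Gapdh was 23.9 ± 3.82, against 10.3 ± 1.55. Their part in the results was not tested. The number of arrays limits the precision of every value below.

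Of 9316 probe sets tested, 3560 (38.2%) were called, 1698 (18.2%) higher and 1862 (20.0%) lower in S-shaped bodies. Counted as genes, with 1 probe set per gene, 2684 of 6746 (39.8%) were called, 1254 (18.6%) higher and 1430 (21.2%) lower, and the median log2 change of all tested genes was -0.08. The size of a change was at least 2-fold for 818 of the higher and 851 of the lower genes, and at least 8-fold for 140 and 87. Of the higher genes, 232 exceeded background on all 3 S-shaped body arrays and on 0 of 3 collecting duct arrays, and 153 of the lower genes showed the opposite pattern. Another 18 of the higher and 22 of the lower genes exceeded background on none of the 6 arrays compared. Since 18.6% and 21.2% of genes were called in each direction, the counts of every gene list below are to be read against these shares.

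The 4 marker genes went with the labels. Ptpro, a receptor phosphatase of podocytes, read 11.66, 11.53 and 11.21 in S-shaped bodies, against 4.22, 2.85 and 3.97 in collecting duct (at least 109-fold higher, adjusted p = 2.27e-05). Foxc2, a forkhead factor of podocyte precursors, read 10.70, 10.85 and 10.78 in S-shaped bodies, against 2.93, 3.57 and 2.85 in collecting duct (at least 67.4-fold higher, adjusted p = 2.60e-08). Endothelial cells join through the cadherin Cdh5, which read 10.26, 10.03 and 9.98 in S-shaped bodies, against 2.85 on every collecting duct array (at least 41.9-fold higher, adjusted p = 2.79e-06). Krt19, a keratin of simple ductal epithelia, read 2.85 on every S-shaped body array, against 11.51, 11.16 and 11.27 in collecting duct (at least 100.2-fold lower, adjusted p = 2.60e-08). No S-shaped body array overlapped a collecting duct array for any of the 4, as held for 54.0% of all genes. In such bulk samples, more cells of a type and more RNA per cell cannot be told apart.

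All S-shaped body arrays lay on 1 side of all collecting duct arrays for 3641 of 6746 genes (54.0%), and 24 of the called ones, 12 in each direction, are taken for their size of change. Beyond the markers, the higher ones included Gimap4, a GTPase of the immunity-associated family, which read 11.27, 11.20 and 10.75 in S-shaped bodies, against 2.85 on every collecting duct array (at least 82.8-fold higher, adjusted p = 2.80e-08). Cxcl12, a chemokine, read 11.10, 10.80 and 10.54 in S-shaped bodies, against 2.85 on every collecting duct array (at least 69.0-fold higher, adjusted p = 2.67e-07). Enpep, the aminopeptidase that cleaves angiotensin II, read 11.28, 11.57 and 10.89 in S-shaped bodies, against 3.90, 4.07 and 4.0 in collecting duct (at least 93.4-fold higher, adjusted p = 2.79e-06). Each of these was near the lowest readable level in collecting duct and among the bright probe sets in S-shaped bodies. The lower ones included Foxa1, a forkhead factor of endoderm and duct epithelia, which read 2.85, 2.85 and 3.53 in S-shaped bodies, against 10.91, 10.78 and 10.77 in collecting duct (at least 71.1-fold lower, adjusted p = 8.07e-07). Plet1, an epithelial surface protein, read 3.71, 4.15 and 4.01 in S-shaped bodies, against 10.61, 10.76 and 10.60 in collecting duct (at least 63.6-fold lower, adjusted p = 5.58e-08), and Tmprss2, a transmembrane serine protease, read 3.03, 3.71 and 3.57 in S-shaped bodies, against 10.21, 9.99 and 10.16 in collecting duct (at least 43.8-fold lower, adjusted p = 3.45e-07). Esrp1, a splicing regulator of epithelial cells, was at least 31.0-fold lower (adjusted p = 3.70e-05).

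**Figure D1:**
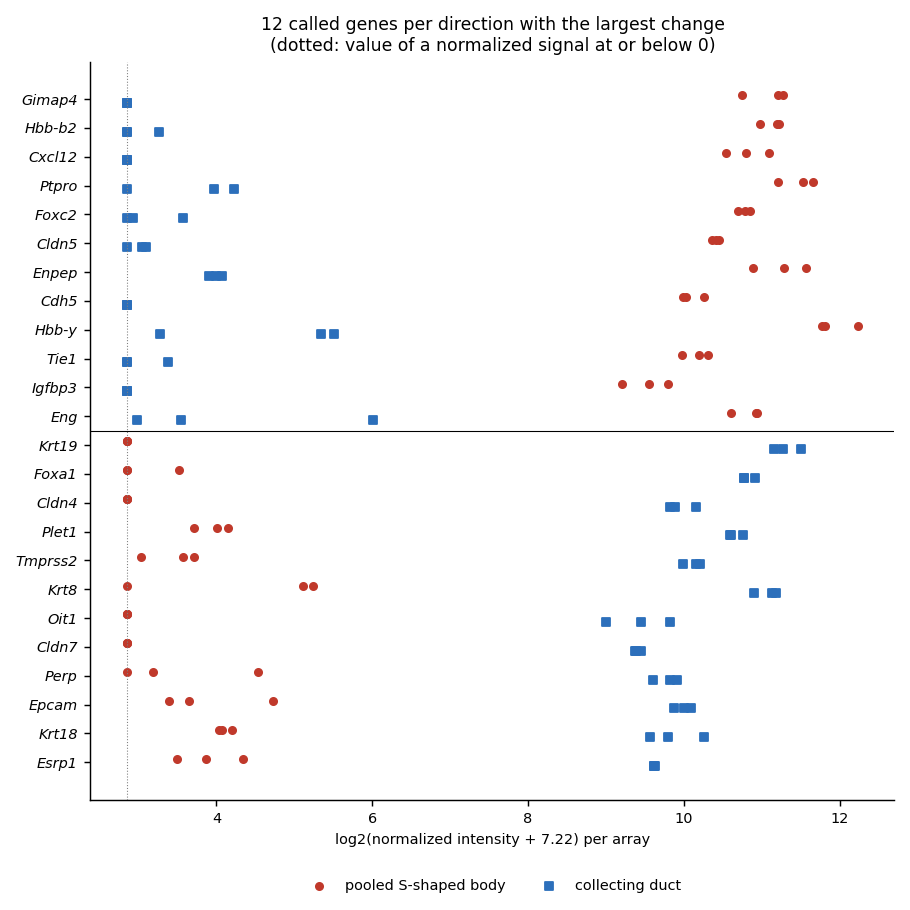
Level on each array of 24 called genes, the 12 most changed in each direction, on the log2 scale with the pseudocount. Circles are the 3 pooled S-shaped body arrays and squares the 3 collecting duct arrays; Gimap4 heads the higher genes and Krt19 the lower ones, and many dim values lie on the dotted line at 2.85.

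Most genes of podocyte precursors were higher in S-shaped bodies. Of 15 tested, 12 passed as higher and 0 as lower, leaving 3 uncalled, and the median log2 change was 3.40, against -0.08 over all genes. Tcf21, a helix-loop-helix factor of podocytes and stroma, read 9.56, 9.50 and 10.35 in S-shaped bodies, against 2.85, 2.91 and 5.03 in collecting duct (log2 change 6.20 ± 0.62, adjusted p = 2.05e-05). Synpo, which binds actin in podocyte foot processes, read 9.61, 9.93 and 8.98 in S-shaped bodies, against 5.91, 5.88 and 5.13 in collecting duct (log2 change 3.86 ± 0.67, adjusted p = 9.26e-04). Cdkn1c, the CDK inhibitor p57 that marks podocytes leaving the cycle, read 12.99, 12.99 and 12.62 in S-shaped bodies, against 9.55, 9.60 and 9.89 in collecting duct (log2 change 3.19 ± 0.49, adjusted p = 4.27e-04). The S-shaped body arrays were the higher ones for each of these. Npr3, a natriuretic peptide clearance receptor, and Efnb1, an ephrin of the slit diaphragm, were at least 25.2-fold and 30.2-fold higher (adjusted p = 4.09e-06 and 1.12e-07). Nes, an intermediate filament of podocytes, and Vegfa, the growth factor that podocytes supply to glomerular capillaries, changed by 3.47 and 2.33 (adjusted p = 1.72e-05 and 4.35e-04). Foxc1 was at least 1.25-fold higher (adjusted p = 2.53e-04), and Actn4, an actin crosslinker of foot processes, changed by 1.10 (adjusted p = 8.19e-04). Dach1, Itga3 and Cd2ap did not pass, at 1.08, 0.40 and -0.47. Single S-shaped bodies and renal vesicles, which lie outside this contrast, averaged 11.31 and 8.89 for Ptpro, 9.23 and 6.34 for Synpo, and 10.80 and 10.46 for Foxc2. The summed normalized intensity of the podocyte list was 15570 to 19038 on S-shaped body arrays and 1676 to 2061 on collecting duct arrays.

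More genes of the cap mesenchyme were higher than lower in S-shaped bodies. Of 14 nephron progenitor genes, 8 passed as higher and 1 as lower, leaving 5 uncalled, with a median of 1.10 (0.24 with 7 members set to their bound). Gas1, a surface protein that binds Hedgehog, read 9.81, 10.11 and 10.19 in S-shaped bodies, against 5.74, 5.70 and 5.50 in collecting duct (log2 change 4.39 ± 0.15, adjusted p = 2.60e-08). Ncam1, an adhesion molecule of mesenchyme and early nephron, changed by 2.43 (adjusted p = 1.09e-05). Six2, which keeps progenitors undifferentiated, read 6.79, 6.71 and 7.37 in S-shaped bodies, against 6.01, 5.89 and 5.83 in collecting duct (log2 change 1.05 ± 0.20, adjusted p = 0.00196). Gdnf, the mesenchymal ligand that attracts the ureteric bud, changed by 1.15 (adjusted p = 0.00479). Renal vesicles were brighter than pooled S-shaped bodies for Six2 and Gdnf, with means of 7.96 and 8.28, against 6.96 and 6.40 (not tested here). Single S-shaped bodies averaged 3.97 for Gdnf, with 0 arrays above background, below the collecting duct mean of 5.25. A dimmer probe set of Gdnf did not pass (0.58, adjusted p = 0.557). Meox1, a mesodermal homeobox gene, was at least 1.34-fold lower (adjusted p = 0.0107).

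Early nephron genes passed in both directions, where all genes had 18.6% higher and 21.2% lower. Of 16 tested, 5 passed as higher and 2 as lower, leaving 9 uncalled, with a median of 0.09 (0.01 with 9 members set to their bound). Cdh4, a cadherin, read 8.91, 8.68 and 8.69 in S-shaped bodies, against 2.85 on every collecting duct array (at least 16.7-fold higher, adjusted p = 6.90e-08). Hey1, a Notch target, read 8.51, 8.70 and 8.82 in S-shaped bodies, against 4.09, 3.43 and 4.93 in collecting duct (log2 change 4.52 ± 0.32, adjusted p = 1.86e-06). Their S-shaped body arrays lay above those of collecting duct without overlap, as they did for 24.8% of all genes. The LIM homeobox factor Lhx1 of the vesicle was at least 1.77-fold higher (adjusted p = 3.28e-05). Wnt4, the signal for epithelial conversion, went the other way and read 2.85 on every S-shaped body array, against 6.18, 5.66 and 6.57 in collecting duct (at least 2.77-fold lower, adjusted p = 5.64e-06), and the Wnt inhibitor Dkk1 was at least 1.5-fold lower (adjusted p = 0.00639). Pax8, a paired box factor that the series text names beside Wt1 and Wnt4, read 4.95, 5.70 and 6.08 in S-shaped bodies, against 5.22, 5.29 and 5.60 in collecting duct, and its change of 0.21 did not pass (adjusted p = 0.597). Renal vesicles averaged 7.62 for Wnt4 and 8.32 for Pax8, and single S-shaped bodies 2.85 and 4.50. The sign of the Pax8 change turned without S-shaped body replicate 3 (-0.05) and on the deposited scale (-0.17). Wt1, the zinc finger factor of progenitors and podocytes, read 8.28, 7.87 and 8.37 in S-shaped bodies, against 4.71, 4.93 and 4.69 in collecting duct (log2 change 3.40 ± 0.41, adjusted p = 8.12e-05).

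**Figure D2:**
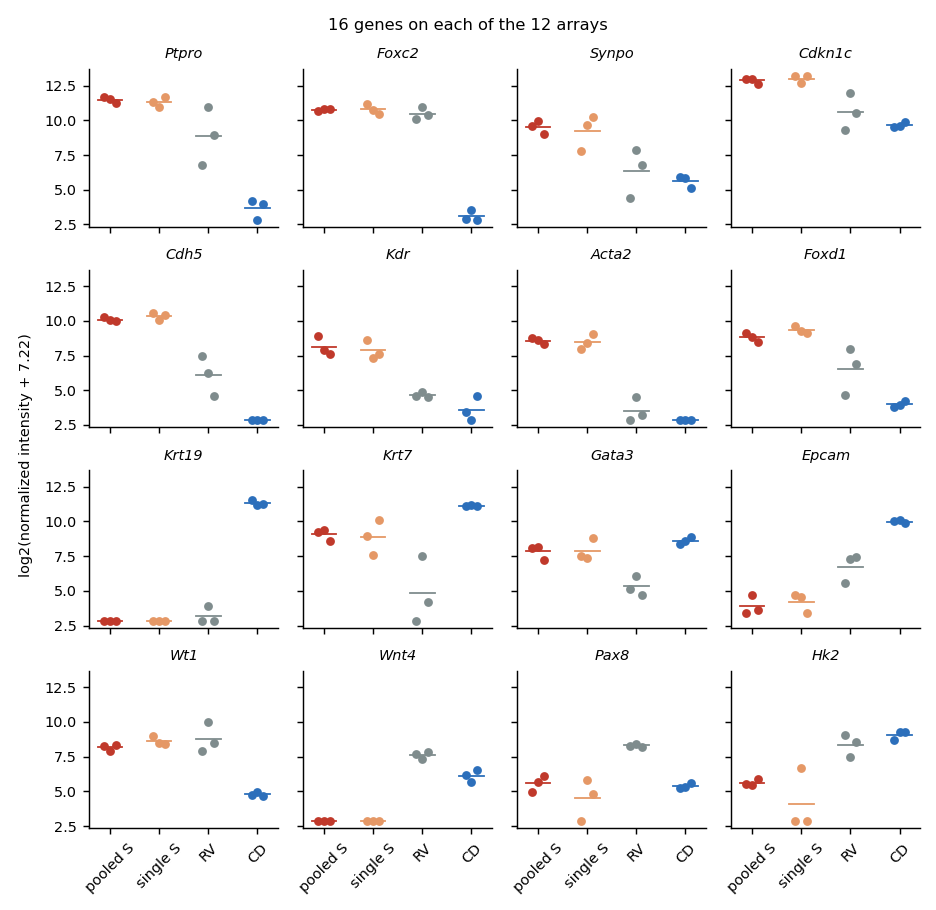
Level of 16 genes on each of the 12 arrays (log2 scale with the pseudocount; lines are group means), from left to right in pooled and single S-shaped bodies, renal vesicles (RV) and collecting duct (CD). Podocyte, endothelial and stromal genes are high in both kinds of S-shaped body and lower in collecting duct, where Cdkn1c still reads 9.55 to 9.89. Krt7 and Gata3 lie well above 2.85 in S-shaped bodies as in collecting duct, and Wnt4 reads 2.85 on every S-shaped body array.

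Endothelial genes were higher in S-shaped bodies for most members. The labels state that staining and RT-PCR served to check identity and purity. Of 35 tested, 28 passed as higher and 0 as lower, leaving 7 uncalled. Their median was 2.76 (1.62 with 22 members set to their bound). On all 3 S-shaped body arrays 32 of the 35 exceeded background, and 22 exceeded it on 0 of the 3 collecting duct arrays. The summed normalized intensity of the endothelial list was 10714 to 14128 on S-shaped body arrays and 756 to 829 on collecting duct arrays. Single S-shaped bodies spanned 9685 to 13179 and renal vesicles 2147 to 4034 on the same sum. Endothelial cells form the lining of vessels, and the VEGF and angiopoietin receptors, junction proteins and SOX and ETS factors listed here are their usual markers.

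Among the receptors, Tie1, an orphan receptor of the angiopoietin system, read 10.31, 9.98 and 10.20 in S-shaped bodies, against 3.37, 2.85 and 2.85 in collecting duct (at least 44.0-fold higher, adjusted p = 5.44e-06). Kdr, the main VEGF receptor, read 8.93, 7.90 and 7.60 in S-shaped bodies, against 3.40, 2.85 and 4.58 in collecting duct (at least 10.8-fold higher, adjusted p = 2.01e-05). Flt1, its decoy relative, read 8.50, 8.67 and 7.64 in S-shaped bodies, against 3.42, 2.85 and 3.69 in collecting duct (at least 11.8-fold higher, adjusted p = 2.11e-06). No collecting duct array exceeded background for these 3 receptors. Eng, a coreceptor for TGF-beta ligands, read 10.93, 10.60 and 10.93 in S-shaped bodies, against 3.55, 6.02 and 2.98 in collecting duct (log2 change 6.64 ± 0.60, adjusted p = 1.04e-05), and collecting duct replicate 2 was the 1 array of that group above background. S1pr1, a sphingosine phosphate receptor, and Ednrb, an endothelin receptor, were at least 17.2-fold and 14.2-fold higher (adjusted p = 2.80e-07 and 6.21e-05). Of the junction and surface proteins, Cldn5, the claudin of vessels, read 10.41, 10.46 and 10.36 in S-shaped bodies, against 3.05, 2.85 and 3.10 in collecting duct (at least 52.2-fold higher, adjusted p = 1.12e-07). Renal vesicles averaged 10.23 for Cldn5, near the S-shaped body level, but 8.62 for Eng, 6.11 for Cdh5, 5.93 for Tie1 and 3.85 for Flt1 (not tested here). The adhesion molecules Pecam1 and Icam2 were at least 5.74-fold and 9.43-fold higher (adjusted p = 6.85e-05 and 5.95e-07). Emcn, a sialomucin of capillaries, changed by 5.72 (adjusted p = 3.81e-07). Among transcription factors, Sox17 and Ets1 were at least 14.0-fold and 3.07-fold higher (adjusted p = 3.72e-05 and 8.86e-05), and Lmo2, a bridging factor of blood and vessels, changed by 4.85 (adjusted p = 4.62e-06). Tal1, Thbd, Acvrl1, Gja5, Fli1, Apln and Edn1 did not pass, with changes between -0.66 and 0.99. Other probe sets of Lmo2 and Edn1 were called lower (-0.99 and -3.18, adjusted p = 0.0287 and 4.02e-05), and another of Ets1 did not pass (-0.47, adjusted p = 0.524).

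Upstream sequences of the endothelial genes were read because ETS factors bind many vessel promoters. RefSeq promoters (GRCm38.p6) were found for 15 of the 28 called members, and the 250 bases before each annotated start were searched on both strands for AGGAAG, a core that ETS factors recognise. It was present for 7 of 15 genes (46.7%), against 32.3% of the 27025 genes with a promoter. The windows of 3 receptors, chosen because each holds more than 1 match, are shown 5′ to 3′ on the gene's strand, with AGGAAG or its reverse complement in capitals. A match in these letters is a description and no evidence of binding.

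Eng (chr2:32646345-32646594, plus strand): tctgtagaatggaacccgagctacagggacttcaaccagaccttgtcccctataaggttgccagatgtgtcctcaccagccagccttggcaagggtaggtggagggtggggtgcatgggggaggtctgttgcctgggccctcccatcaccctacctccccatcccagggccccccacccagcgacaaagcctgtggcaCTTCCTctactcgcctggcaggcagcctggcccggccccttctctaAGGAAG

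Flt1 (chr5:147726012-147726261, minus strand): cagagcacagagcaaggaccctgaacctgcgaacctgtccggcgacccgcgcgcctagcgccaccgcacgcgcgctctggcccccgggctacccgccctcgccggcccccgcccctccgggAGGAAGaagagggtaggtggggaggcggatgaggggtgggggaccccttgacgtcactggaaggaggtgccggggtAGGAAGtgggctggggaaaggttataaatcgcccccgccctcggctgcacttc

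Notch4 (chr17:34564045-34564294, plus strand): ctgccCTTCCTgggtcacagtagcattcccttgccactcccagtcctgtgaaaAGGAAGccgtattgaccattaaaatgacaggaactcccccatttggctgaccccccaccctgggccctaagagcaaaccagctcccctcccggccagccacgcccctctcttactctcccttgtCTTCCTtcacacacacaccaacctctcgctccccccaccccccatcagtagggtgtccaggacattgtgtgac

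The 2 matches of Eng start 52 and 6 bases before the annotated start, those of Flt1 129 and 53 bases before it, and those of Notch4 245, 197 and 73 bases before it.

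Of 16 growth factors and receptors of vessels, 12 passed as higher and 0 as lower, leaving 4 uncalled, with a median of 2.29 (1.91 with 9 members set to their bound). Some also stand in the endothelial list. Nrp1, a coreceptor for VEGF and semaphorins, read 11.34, 10.99 and 11.12 in S-shaped bodies, against 4.40, 5.22 and 4.43 in collecting duct (log2 change 6.47 ± 0.27, adjusted p = 5.58e-08). Vegfc, the ligand of Flt4, was at least 8.38-fold higher (adjusted p = 2.56e-06), and Pgf, a VEGF relative that binds Flt1, changed by 1.35 (adjusted p = 0.00143). Efnb2, Vegfb, Pdgfa and Pdgfb did not pass, at 0.64, -0.19, -0.26 and -0.33.

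Most mural and mesangial genes and 17 of 35 stromal ones were called higher. Of 13 mural and mesangial genes, 10 passed as higher and 1 as lower, leaving 2 uncalled, with a median of 1.54 (0.87 with 7 members set to their bound). Acta2, smooth muscle actin, read 8.73, 8.66 and 8.33 in S-shaped bodies, against 2.85 on every collecting duct array (at least 14.6-fold higher, adjusted p = 1.36e-06). Kcnj8, a potassium channel of pericytes, read 8.76, 8.24 and 7.34 in S-shaped bodies, against 3.34, 3.70 and 2.85 in collecting duct (at least 10.6-fold higher, adjusted p = 1.53e-05). Pdgfrb, the receptor that recruits mesangial cells, was at least 1.40-fold higher (adjusted p = 2.54e-04), and Notch3 changed by -1.32 (adjusted p = 0.00101). Of 35 genes of stroma and interstitium, 17 passed as higher and 1 as lower, leaving 17 uncalled, with a median of 0.88 (0.58 with 16 members set to their bound). Foxd1, the forkhead factor of cortical stroma, read 9.11, 8.85 and 8.51 in S-shaped bodies, against 3.78, 3.95 and 4.26 in collecting duct (at least 17.4-fold higher, adjusted p = 1.37e-04). The growth factor receptor Pdgfra was at least 7.02-fold higher (adjusted p = 1.42e-05) by its brightest probe set, while its others did not pass (-0.65 and -0.02, adjusted p = 0.149 and 0.968). Zeb1, a repressor of epithelial genes, was at least 35.8-fold higher (adjusted p = 2.67e-07) by its brightest probe set, while a dimmer one under background in both groups was called lower. Among collagens and matrix proteins, Col5a2 and Col3a1 were at least 16.6-fold and 2.62-fold higher (adjusted p = 6.54e-06 and 4.91e-04), whereas Postn and Lum did not pass (0.58 and 0.32). Col1a2 did not pass by its brightest probe set (-0.09), while another probe set of Col1a2 was called higher (log2 change 7.90, adjusted p = 9.09e-05).

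Of 12 red blood cell genes, 6 passed as higher and 0 as lower, leaving 6 uncalled, and 5 of the higher ones were globins. Hbb-b2, an adult beta globin, read 11.20, 11.23 and 10.97 in S-shaped bodies, against 2.85, 2.85 and 3.27 in collecting duct (at least 86.2-fold higher, adjusted p = 8.89e-07). Hbb-y, an embryonic beta globin, read 11.78, 11.82 and 12.23 in S-shaped bodies, against 5.51, 5.34 and 3.28 in collecting duct (log2 change 7.23 ± 0.93, adjusted p = 1.30e-04). Hba-a1, an alpha globin, read 10.996, 10.51 and 10.73 in S-shaped bodies, against 6.34, 6.64 and 6.41 in collecting duct (log2 change 4.28 ± 0.69, adjusted p = 6.07e-04). Some globin genes are near-identical copies of each other, so their probe sets can share signal. The summed normalized intensity of the red blood cell list was 7867 to 9169 on S-shaped body arrays and 283 to 298 on collecting duct arrays. The erythroid regulators Klf1 and Gata1 did not pass (0.55 and 0.11). For the stroma list the sums ran 7690 to 9822 in S-shaped bodies and 2260 to 2953 in collecting duct. For the mural list they ran 1676 to 2571 in S-shaped bodies and 705 to 903 in collecting duct. The part of these cells in the higher genes was not tested.

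**Figure D3:**
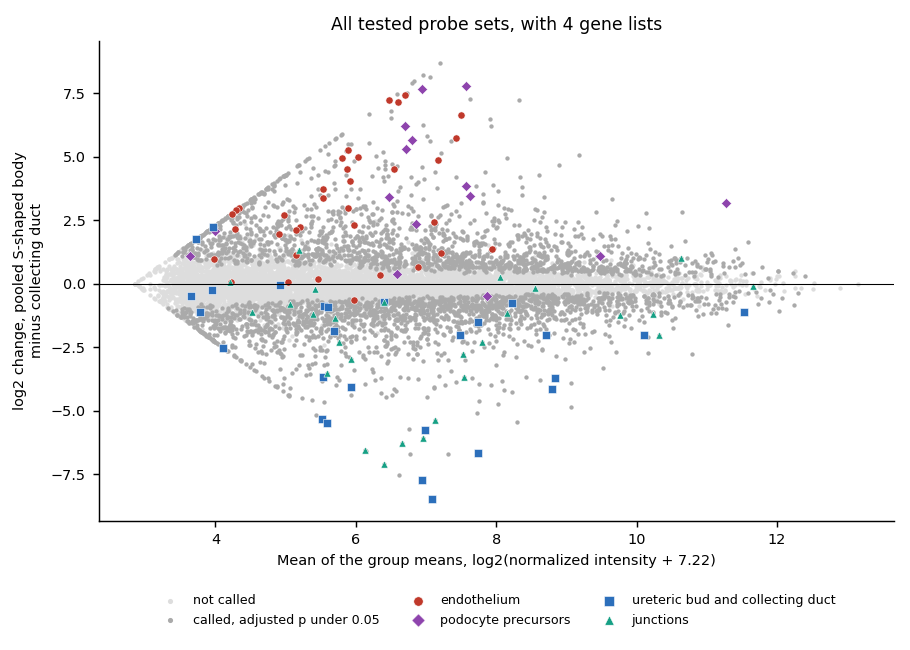
Log2 change (pooled S-shaped body minus collecting duct) against the mean level of both groups for the 9316 tested probe sets, with the tested members of 4 gene lists marked. Podocyte and endothelial members lie mostly above 0, with medians of 3.40 and 2.76, and those of ureteric bud, collecting duct and junctions mostly below, with medians of -2.01 and -1.24.

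Most genes of the ureteric bud and collecting duct were lower in S-shaped bodies. Of 27 tested, 0 passed as higher and 20 as lower, leaving 7 uncalled, with a median of -2.01 (-1.84 with 13 members set to their bound). The summed normalized intensity of the list was 3544 to 4056 on S-shaped body arrays and 20253 to 21912 on collecting duct arrays, and 3 members were at or below 0 on every S-shaped body array. Spint1, an inhibitor of epithelial serine proteases, read 2.85 on every S-shaped body array, against 8.27, 8.13 and 8.12 in collecting duct (at least 11.4-fold lower, adjusted p = 8.73e-08). Lgals3, a galectin of collecting duct cells, read 2.85 on every S-shaped body array, against 8.36, 8.13 and 8.49 in collecting duct (at least 12.7-fold lower, adjusted p = 6.13e-08). For both, every S-shaped body array was at the lowest possible level. Cdh16, the kidney-specific cadherin, read 6.10, 7.57 and 6.47 in S-shaped bodies, against 11.001, 11.02 and 10.56 in collecting duct (log2 change -4.15 ± 0.52, adjusted p = 1.03e-04). Among transcription factors, Tfcp2l1, which shapes collecting duct cell types, changed by -3.70 (adjusted p = 5.13e-05), Elf5 was at least 6.50-fold lower (adjusted p = 2.36e-06), and Gata2 changed by -2.02 (adjusted p = 2.22e-05). Another probe set of Tfcp2l1 did not pass (0.47, adjusted p = 0.362). Cd24a, a surface glycoprotein, was bright in both groups and read 10.96, 10.82 and 11.14 in S-shaped bodies, against 12.14, 12.09 and 12.003 in collecting duct (log2 change -1.10 ± 0.11, adjusted p = 2.12e-05).

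Some duct genes were well above background in S-shaped bodies. Krt7, a keratin, read 9.26, 9.41 and 8.62 in S-shaped bodies, against 11.09, 11.16 and 11.07 in collecting duct, and its change of -2.01 ± 0.86 (SE) did not pass (adjusted p = 0.0889). The SE and p-value come from the fit of 9 arrays, renal vesicles included. Gata3, a factor needed for the ureteric bud, read 8.09, 8.16 and 7.25 in S-shaped bodies, against 8.38, 8.57 and 8.88 in collecting duct, a change of -0.77 (adjusted p = 0.104). Their S-shaped body arrays lay below the collecting duct arrays without overlap, as those of 29.2% of all genes did. Single S-shaped bodies averaged 8.87 and 7.90 and renal vesicles 4.86 and 5.32 for Krt7 and Gata3. Wnt11 and Calb1, genes of the ureteric tip and stalk, did not pass (adjusted p = 0.0668 and 0.249). Wnt11 read 3.36, 5.79 and 4.65 in S-shaped bodies, against 2.85 on every collecting duct array, and Calb1 read 3.19, 7.70 and 4.34 in S-shaped bodies, against 2.85 on every collecting duct array. S-shaped body replicate 2 was the highest for both.

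The 5 simple epithelial keratins had 4 members lower and 0 higher, and a median of -5.77 (-5.21 with 3 members set to their bound). When 1 array was left out, 3 to 5 were lower, so the call of Krt7, the uncalled member, depended on the arrays used. Krt8, which pairs with Krt18 in simple epithelia, read 2.85, 5.24 and 5.12 in S-shaped bodies, against 11.13, 10.90 and 11.18 in collecting duct (log2 change -6.67 ± 0.85, adjusted p = 1.15e-04). Krt18 read 4.07, 4.04 and 4.19 in S-shaped bodies, against 10.26, 9.79 and 9.57 in collecting duct (at least 37.0-fold lower, adjusted p = 5.51e-08). Krt8 was above background on 2 of 3 S-shaped body arrays.

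Most junction genes were lower in S-shaped bodies. Of 27 genes of tight, adherens and desmosomal junctions, 2 passed as higher and 18 as lower, leaving 7 uncalled, with a median of -1.24. Cldn4, a claudin of the collecting duct, read 2.85 on every S-shaped body array, against 9.82, 9.89 and 10.16 in collecting duct (at least 39.2-fold lower, adjusted p = 5.58e-08). Its relative Cldn7 read 2.85 on every S-shaped body array, against 9.44, 9.39 and 9.37 in collecting duct (at least 26.7-fold lower, adjusted p = 2.36e-06). Epcam, an epithelial adhesion molecule, read 3.38, 4.72 and 3.65 in S-shaped bodies, against 9.997, 10.09 and 9.88 in collecting duct (log2 change -6.07 ± 0.47, adjusted p = 3.36e-06). The lower genes also included desmosomal ones. Dsc2, a desmosomal cadherin, read 4.0, 4.90 and 4.40 in S-shaped bodies, against 9.75, 9.69 and 9.997 in collecting duct (log2 change -5.38 ± 0.27, adjusted p = 1.56e-07). Dsg2, Dsp and Pkp2 changed by -3.66, -2.0 and -1.19 (adjusted p = 3.52e-05, 5.95e-06 and 1.59e-04). Perp, a desmosomal membrane protein, was at least 34.7-fold lower (adjusted p = 1.12e-06). Of the polarity genes, Crb3 was at least 6.39-fold lower (adjusted p = 7.72e-05), and Llgl2 and Pard3 changed by -2.29 and -1.13 (adjusted p = 2.98e-04 and 5.99e-04). Tjp1, the scaffold ZO-1, went the other way and read 11.09, 11.31 and 11.01 in S-shaped bodies, against 10.16, 10.07 and 10.12 in collecting duct (log2 change 1.02 ± 0.13, adjusted p = 1.21e-04), as did Cldn1 (log2 change 1.31 ± 0.38, adjusted p = 0.0178). Ctnnb1 and Ctnnd1, catenins of any cadherin junction, did not pass (-0.08 and -0.15).

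Cdh5, Cdh4, Cdh2 and Cdh11 were higher and Cdh1, Cdh3 and Cdh16 lower among 8 tested. Cdh2, N-cadherin of early nephron and mesenchyme, read 5.81, 5.53 and 5.50 in S-shaped bodies, against 2.85 on every collecting duct array (at least 1.88-fold higher, adjusted p = 2.01e-05). Cdh11, a mesenchymal cadherin, changed by 1.66 (adjusted p = 2.93e-04). Cdh1, E-cadherin, read 5.99, 6.01 and 6.11 in S-shaped bodies, against 6.59, 6.86 and 6.84 in collecting duct (log2 change -0.72 ± 0.19, adjusted p = 0.0104).

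Promoters of the junction genes were read beside the endothelial ones, for GCCNNNGGC, a palindrome that TFAP2 factors bind. Tfap2a itself changed by -1.09 (adjusted p = 0.0160). Of the 18 lower junction genes, 10 had a RefSeq promoter, and 3 of them (30%) held GCCNNNGGC within 250 bases, against 15.4% of all promoters. The endothelial set held it in 7 of 15 (46.7%). Cldn4 and Epcam, shown for the size of their fall, have no match, and Dsp has 1, in capitals, which starts 75 bases before the annotated start.

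Cldn4 (chr5:134946935-134947184, minus strand): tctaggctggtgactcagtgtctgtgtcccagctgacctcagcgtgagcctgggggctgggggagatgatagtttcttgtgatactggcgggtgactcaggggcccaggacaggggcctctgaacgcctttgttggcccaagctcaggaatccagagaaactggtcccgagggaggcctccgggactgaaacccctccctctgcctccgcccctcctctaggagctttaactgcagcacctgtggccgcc

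Epcam (chr17:87635729-87635978, plus strand): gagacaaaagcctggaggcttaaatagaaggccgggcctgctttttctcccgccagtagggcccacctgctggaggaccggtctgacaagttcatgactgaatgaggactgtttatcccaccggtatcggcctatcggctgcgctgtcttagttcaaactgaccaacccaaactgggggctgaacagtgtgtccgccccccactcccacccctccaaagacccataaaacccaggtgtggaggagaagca

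Dsp (chr13:38151044-38151293, plus strand): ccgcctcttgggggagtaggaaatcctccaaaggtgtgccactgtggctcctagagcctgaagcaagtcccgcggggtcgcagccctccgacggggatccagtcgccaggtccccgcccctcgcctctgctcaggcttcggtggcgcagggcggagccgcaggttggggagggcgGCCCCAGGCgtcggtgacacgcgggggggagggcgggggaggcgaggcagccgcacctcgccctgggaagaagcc

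Of 25 apical secretory and mucosal genes, 2 passed as higher and 10 as lower, leaving 13 uncalled. Oit1 read 2.85 on every S-shaped body array, against 9.0, 9.82 and 9.45 in collecting duct (at least 27.1-fold lower, adjusted p = 5.14e-08). Wfdc2, a secreted whey acidic protein, and Anxa8, an annexin, were at least 8.02-fold and 7.90-fold lower (adjusted p = 7.24e-07 and 3.83e-05). Prss8, an apical serine protease that activates the sodium channel ENaC, changed by -3.35 (adjusted p = 1.67e-06). S100a6 changed by -3.02 (adjusted p = 5.52e-04).

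**Figure D4:**
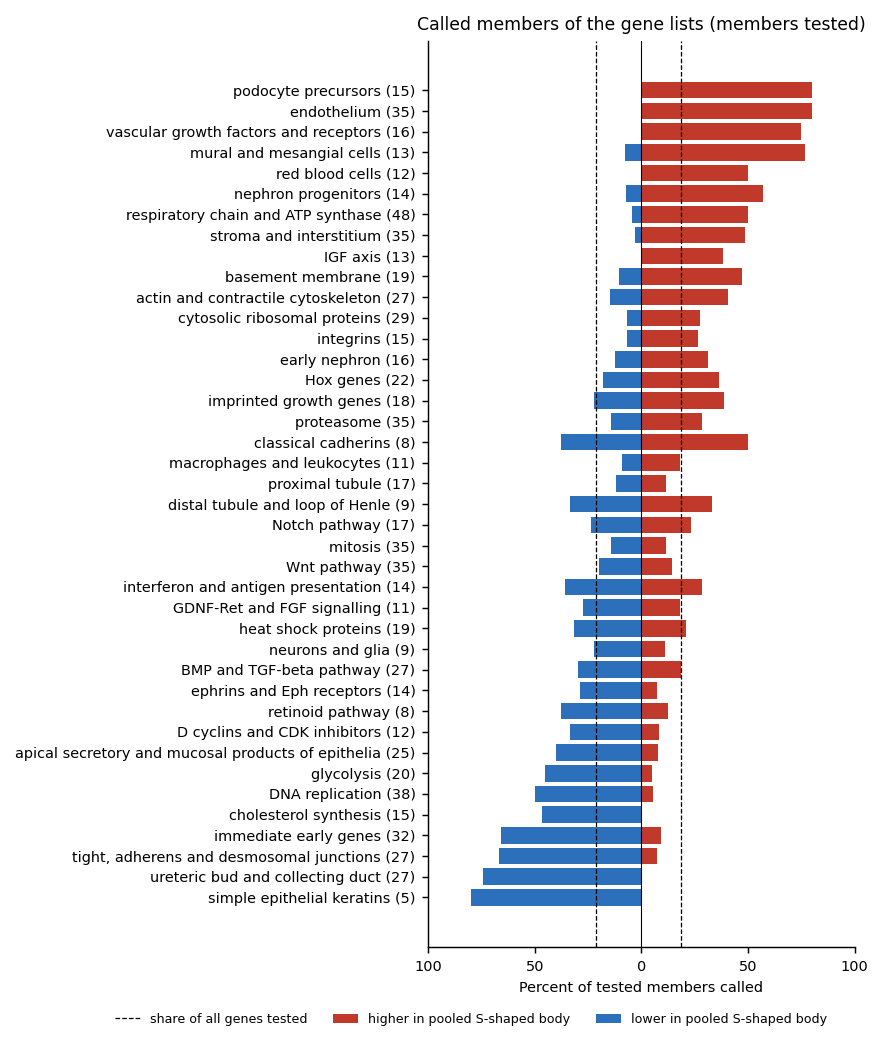
Percent of each list's tested members called higher (right) or lower (left) in pooled S-shaped bodies than in collecting duct, with the number tested in brackets. Dashed lines mark the shares over all genes, 18.6% higher and 21.2% lower; podocyte and endothelial lists stand at the top and keratins, ureteric bud and junctions at the bottom.

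Of 19 basement membrane genes, 9 passed as higher and 2 as lower, leaving 8 uncalled, with a median of 0.73. Nid1 and Nid2, the nidogens that link laminin to collagen IV, were at least 13.7-fold and 33.5-fold higher (adjusted p = 8.89e-07 and 2.60e-08). Col4a1, which forms the ubiquitous collagen IV network with Col4a2, read 12.09, 12.06 and 12.02 in S-shaped bodies, against 9.14, 9.33 and 9.25 in collecting duct (log2 change 2.82 ± 0.10, adjusted p = 2.60e-08). Col4a2 changed by 2.83 (adjusted p = 3.45e-07). Lama1, the laminin chain of early nephron epithelium, changed by 1.82 (adjusted p = 0.0134), and Lama4, of vessel walls, was at least 14.4-fold higher (adjusted p = 5.14e-08) by its brightest probe set, while another probe set of Lama4 was called lower (log2 change -1.37). By the brightest probe set, Lama4 averaged 9.88 in renal vesicles, against 8.55 in S-shaped bodies (not tested here). Lamb3 and Lama3, chains of laminin-332, fell, and Lamb3 read 2.85 on every S-shaped body array, against 7.03, 6.54 and 7.12 in collecting duct (at least 4.69-fold lower, adjusted p = 1.04e-06). Among 15 integrins, 4 passed as higher and 1 as lower, leaving 10 uncalled, and on the deposited scale 3 were higher and 3 lower. Itga2, among the higher ones, exceeded background on none of the 6 arrays compared. Itgb5 changed by 1.79 (adjusted p = 1.07e-04), while Itgb1, the common partner, did not pass by its brightest probe set (-0.05) and was called higher by another (1.05, adjusted p = 0.00119).

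Signalling pathways were divided among their members, and their counts stand beside 18.6% higher and 21.2% lower over all genes. Of 17 Notch genes, 4 passed as higher and 4 as lower, leaving 9 uncalled. Without collecting duct replicate 3, 2 were lower. Besides Hey1, the receptor Notch4, of endothelium, was at least 1.87-fold higher (adjusted p = 1.66e-04), and Notch1 changed by 0.94 (adjusted p = 0.00306), while Hes1 changed by -0.75 (adjusted p = 0.0244). Of 35 Wnt genes, 5 passed as higher and 7 as lower, leaving 23 uncalled. Secreted inhibitors passed in both directions. Dkk2 was at least 3.42-fold higher (adjusted p = 5.07e-05), Dkk3 was at least 4.48-fold lower (adjusted p = 1.56e-05), and Sfrp2 changed by 1.45 (adjusted p = 6.67e-05). Wnt10a, a ligand, was at least 4.17-fold lower (adjusted p = 1.48e-04).

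Of 27 BMP and TGF-beta genes, 5 passed as higher and 8 as lower, leaving 14 uncalled. Without S-shaped body replicate 1, 3 were higher. Id1, Id2 and Id3, target genes of BMP signalling, were lower. Id1 read 7.97, 7.30 and 8.16 in S-shaped bodies, against 9.62, 9.54 and 9.65 in collecting duct (log2 change -1.80 ± 0.20, adjusted p = 5.00e-05). Id2 read 8.68, 8.88 and 8.85 in S-shaped bodies, against 11.65, 11.46 and 11.43 in collecting duct (log2 change -2.71 ± 0.12, adjusted p = 5.58e-08). Id3 and Smad7, a feedback inhibitor, changed by -1.48 and -2.14 (adjusted p = 1.10e-04 and 7.45e-06), and Id4 did not pass (-0.61). The ligand Bmp2 did not pass (-0.53), nor did Bmp4 by its brightest probe set (0.23), while another of Bmp4 was called higher (0.68, adjusted p = 0.0222). Tgfb2 was at least 2.63-fold higher (adjusted p = 9.94e-04).

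Fgfr2, the receptor of ductal and nephron epithelia, read 8.38, 8.35 and 8.74 in S-shaped bodies, against 10.76, 10.59 and 10.94 in collecting duct (log2 change -2.27 ± 0.15, adjusted p = 9.43e-07). The call of Fgfr1 (0.96, adjusted p = 0.00724) was lost on the deposited scale. Of 11 GDNF and FGF genes, 2 passed as higher and 3 as lower, leaving 6 uncalled. Of 13 genes of the IGF axis, 5 passed as higher and 0 as lower, leaving 8 uncalled, and on the deposited scale 5 were higher and 2 lower. Without S-shaped body replicate 3 or collecting duct replicate 1, 3 were higher. Igfbp3, a carrier of IGFs, was at least 28.1-fold higher (adjusted p = 2.56e-06). Igf1r, the receptor, read 9.61, 9.68 and 9.67 in S-shaped bodies, against 6.36, 7.08 and 6.84 in collecting duct (log2 change 2.89 ± 0.20, adjusted p = 1.34e-06), while the ligand Igf2 did not pass (-0.17). The ligand Igf1 did not pass by its brightest probe set (-0.16), and another was called higher (2.92, adjusted p = 3.01e-04). Erbb3, a neuregulin receptor, read 5.50, 5.75 and 5.19 in S-shaped bodies, against 9.16, 9.31 and 9.63 in collecting duct (log2 change -3.88 ± 0.28, adjusted p = 1.97e-06). Of 14 ephrins and Eph receptors, 1 passed as higher and 4 as lower, leaving 9 uncalled. Without S-shaped body replicate 3, 2 were lower. Efnb1 was the higher one, and Ephb3, a receptor for ephrin-B ligands, changed by -2.08 (adjusted p = 1.94e-04). Of 8 retinoid genes, 1 passed as higher and 3 as lower, leaving 4 uncalled, with Dhrs3, a retinal reductase, at -2.02 (adjusted p = 0.00167).

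Hox genes, which pattern the body axis, passed in both directions, beside 18.6% higher and 21.2% lower over all genes. Of 22 tested, 8 passed as higher and 4 as lower, leaving 10 uncalled. The higher ones came from the A, C and D clusters. Hoxc6 read 8.66, 8.77 and 8.57 in S-shaped bodies, against 2.85, 2.85 and 3.85 in collecting duct (at least 15.6-fold higher, adjusted p = 2.85e-07). Hoxc9 and Hoxa10 were at least 10.1-fold and 2.46-fold higher (adjusted p = 5.95e-07 and 7.00e-06), and Hoxa7, Hoxa11, Hoxa5, Hoxd10 and Hoxc4 also passed. The lower ones came from the B and D clusters, Hoxb6, Hoxb7, Hoxd8 and Hoxd1. Hoxd8 read 8.11, 8.50 and 8.18 in S-shaped bodies, against 10.24, 10.14 and 10.40 in collecting duct (log2 change -2.0 ± 0.19, adjusted p = 1.75e-05). Hoxb7, whose regulatory sequence is used to mark the ureteric bud, read 6.71, 7.21 and 7.02 in S-shaped bodies, against 8.47, 8.55 and 8.48 in collecting duct (log2 change -1.52 ± 0.17, adjusted p = 5.12e-05). The counts were the same on the deposited scale.

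Imprinted growth genes had 7 higher and 4 lower calls among 18, and on the deposited scale 3 higher and 9 lower. Without S-shaped body replicate 3, 4 were higher. Mest read 10.41, 10.23 and 10.16 in S-shaped bodies, against 6.68, 6.41 and 6.29 in collecting duct (log2 change 3.81 ± 0.16, adjusted p = 5.58e-08). Peg3 changed by -0.98 (adjusted p = 3.53e-04) by its brightest probe set, whereas another was called higher (2.76, adjusted p = 2.76e-06) and the mean of its probe sets was higher too (0.41, adjusted p = 0.0243). Igf2, Dlk1 and Grb10 did not pass (-0.17, -0.26 and -0.08).

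Genes of DNA replication were lower in part. Of 38 tested, 2 passed as higher and 19 as lower, leaving 17 uncalled, with a median of -0.58, and 11 of the lower ones were at least 2-fold. Uhrf1, which maintains DNA methylation at the fork, read 4.30, 4.36 and 4.71 in S-shaped bodies, against 6.43, 6.77 and 6.58 in collecting duct (at least 3.81-fold lower, adjusted p = 1.24e-04), and Lig1, the replicative ligase, was at least 2.28-fold lower (adjusted p = 0.00391). Chaf1a, Pola1 and Cdc6 changed by -1.75, -1.30 and -1.07 (adjusted p = 4.45e-05, 6.75e-04 and 7.60e-04), while Pcna and Mcm2 did not pass (0.18 and 0.04). Mitosis genes had 4 higher and 5 lower calls among 35 and a median of -0.05, and on the deposited scale 1 higher and 13 lower. Without S-shaped body replicate 3 or collecting duct replicate 1, 3 were lower. Mki67 and Ccnb2, of cycling cells, did not pass (0.07 and 0.23), Cdc20 changed by 1.12 (adjusted p = 1.99e-04), and Birc5, survivin, was at least 2.45-fold lower (adjusted p = 6.27e-05). Among 12 D cyclins and CDK inhibitors, Cdkn1c was the 1 higher gene, and Cdkn1b, the inhibitor p27, was among 4 lower ones, at -1.28 (adjusted p = 0.00592).

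Immediate early genes, which cells switch on within minutes of a stimulus, were mostly lower in S-shaped bodies. Of 32 tested, 3 passed as higher and 21 as lower, leaving 8 uncalled, with a median of -1.45. Fos read 9.39, 9.41 and 9.43 in S-shaped bodies, against 12.09, 12.18 and 12.26 in collecting duct (log2 change -2.77 ± 0.41, adjusted p = 3.51e-04). Egr1 read 7.68, 6.83 and 6.81 in S-shaped bodies, against 10.89, 10.89 and 11.28 in collecting duct (log2 change -3.91 ± 0.42, adjusted p = 3.49e-05). Atf3 read 5.86, 6.07 and 5.85 in S-shaped bodies, against 9.41, 10.27 and 10.10 in collecting duct (log2 change -4.0 ± 0.26, adjusted p = 9.39e-07). The collecting duct arrays were the brighter ones for each. Egr2 and Klf6 changed by -4.59 and -3.67 (adjusted p = 2.56e-06 and 7.77e-05), Jun by -2.32 (adjusted p = 2.22e-05), and Junb was at least 5.31-fold lower (adjusted p = 8.82e-04). Ccn1 and Ccn2, matrix proteins induced by stretch and serum, changed by -2.84 and -2.02. The 3 higher members were Klf2, a factor of endothelium under flow, which was at least 5.19-fold higher (adjusted p = 1.86e-06), Sgk1, a kinase induced by corticosteroids, which read 10.77, 10.44 and 10.10 in S-shaped bodies, against 6.09, 6.36 and 6.24 in collecting duct (log2 change 4.21 ± 0.26, adjusted p = 8.22e-07), and Gadd45a (log2 change 2.51 ± 0.51, adjusted p = 0.00258). Dusp1 and Socs3 did not pass (-0.43 and -0.07). The mean level of the list was 6.77 to 6.85 on the S-shaped body arrays and 7.93 to 8.27 on the collecting duct arrays, with 6.55 to 6.81 in single S-shaped bodies, which were not pooled, and 6.15 to 6.90 in renal vesicles. Heat shock proteins had 4 higher and 6 lower calls among 19 (0 higher and 7 lower on the deposited scale), with Dnajb1 at -2.10 and Hspa8 not past the test (-0.27). The higher ones numbered 1 without S-shaped body replicate 2 or collecting duct replicate 2, and 2 when any other array of the comparison was left out.

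**Figure D5:**
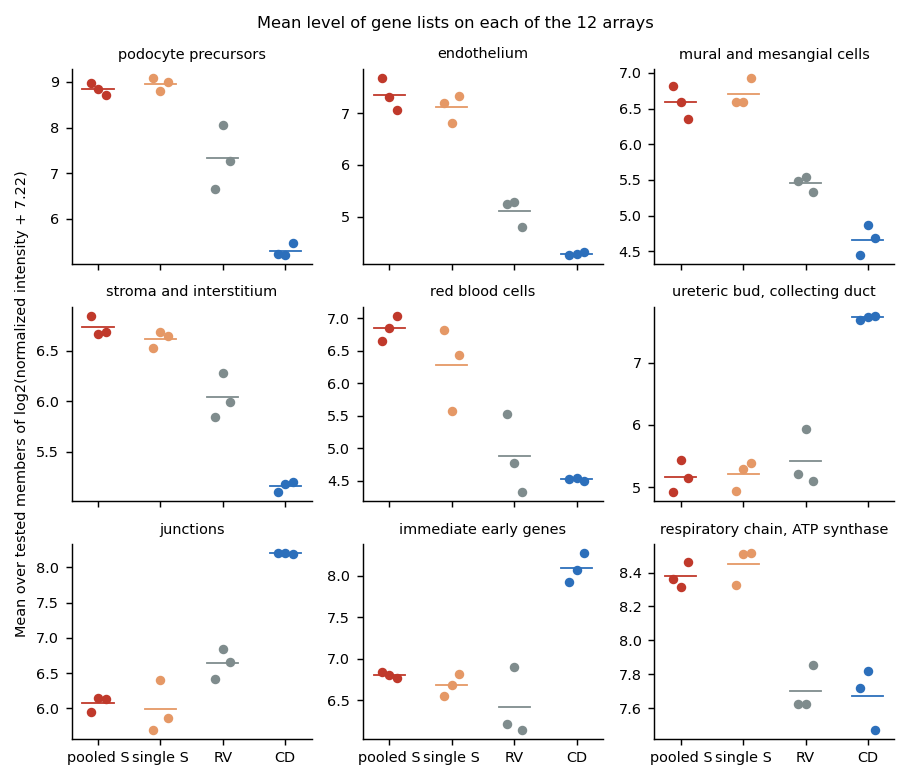
Mean log2 level (with the pseudocount) over the tested members of 9 gene lists on each of the 12 arrays; lines are group means of pooled and single S-shaped bodies, renal vesicles (RV) and collecting duct (CD), and each panel has its own axis. Every array of pooled and single S-shaped bodies lies above those of collecting duct for podocyte, endothelial, mural, stromal, red blood cell and respiratory chain genes and below them for ureteric bud, junction and immediate early genes.

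Of 20 glycolysis genes, 1 passed as higher and 9 as lower, leaving 10 uncalled, with a median of -0.58 (-0.54 with 1 member set to their bound). Hk2, a hexokinase, read 5.53, 5.45 and 5.92 in S-shaped bodies, against 8.71, 9.25 and 9.27 in collecting duct (log2 change -3.45 ± 0.34, adjusted p = 2.05e-05). Pdk1, the kinase that shuts pyruvate dehydrogenase, read 6.86, 7.04 and 6.63 in S-shaped bodies, against 9.77, 9.60 and 9.75 in collecting duct (log2 change -2.87 ± 0.24, adjusted p = 5.96e-06). Ldha and Pgam1 changed by -1.07 and -1.61 (adjusted p = 0.00170 and 5.48e-06), Bnip3, a mitochondrial protein induced by low oxygen, by -2.05 (adjusted p = 4.58e-04), and Hk1 was higher (log2 change 0.72 ± 0.21, adjusted p = 0.0198). Pgk1 and Tpi1 did not pass (-0.20 and -0.48). Of 48 subunits of the respiratory chain and ATP synthase, 24 passed as higher and 2 as lower, leaving 22 uncalled, with a median of 0.55. On the deposited scale 14 were higher and 3 lower. Cox7a2, a subunit of cytochrome oxidase, read 8.22, 8.07 and 8.46 in S-shaped bodies, against 5.28, 5.62 and 5.22 in collecting duct (log2 change 2.88 ± 0.24, adjusted p = 6.12e-06). Ndufa5, of complex I, read 10.21, 10.03 and 10.29 in S-shaped bodies, against 8.52, 8.21 and 7.36 in collecting duct (log2 change 2.15 ± 0.29, adjusted p = 1.59e-04). Uqcrb, Sdhb and Atp5j changed by 1.88, 1.64 and 1.92, while Atp5a1, Cox4i1 and Uqcrc2 did not pass (-0.22, -0.26 and 0.24). Cholesterol synthesis genes had 0 higher and 7 lower calls among 15, led by Idi1, the isomerase, at -2.65 (adjusted p = 1.70e-05), and Msmo1 at -2.29 (adjusted p = 4.04e-05).

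The balance of calls in the housekeeping complexes and the cytoskeleton depended on the scale. Proteasome genes had 10 higher and 5 lower calls among 35, and 2 higher and 8 lower on the deposited scale. Without collecting duct replicate 1, 3 were lower. Ribosomal protein genes had 8 higher and 2 lower calls among 29, and 2 higher and 6 lower on the deposited scale. Genes of the interferon response and antigen presentation had 4 higher and 5 lower calls among 14, and 1 higher and 5 lower on that scale. Their higher genes numbered 2 without S-shaped body replicate 3 or collecting duct replicate 1, and their lower ones 3 when any 1 array of the comparison was left out. B2m, the light chain of class I molecules, changed by 1.48 (adjusted p = 4.95e-04). Of 27 actin and contractile genes, 11 passed as higher and 4 as lower, leaving 12 uncalled, and on the deposited scale 8 higher and 9 lower. Myl9, a myosin light chain, and Msn, moesin, were higher, with Myl9 changing by 4.63 (adjusted p = 1.77e-06) and Msn at least 5.44-fold higher (adjusted p = 2.73e-05). Ezr, ezrin of microvilli, changed by -0.81 (adjusted p = 5.55e-04), and Capg, a capping protein, was at least 4.45-fold lower (adjusted p = 3.49e-04). Actb and Actg1 did not pass (-0.32 and -0.48).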

How the data were processed

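RNA extracted with TRIzol was amplified in 2 rounds, labelled with biotin and hybridized, per the labels' protocols. The deposited values are intensity values on a linear scale, 1 column per array, with negative values. GCOS is named in the submitters' processing notes. How the authors corrected background or scaled the arrays is not given in the sources used here. Array medians differed by up to 17.8-fold, so quantile normalization was run over the 12 arrays after removal of 66 controls. Negative values became 0, and log2 was taken after adding 7.22 as pseudocount, which is 25% of the median. A filter at the 25th percentile of mean level over the 9 fitted arrays (S-shaped body, renal vesicle, collecting duct) left 9316 probe sets. The fit was limma 3.58.1 in R 4.3.3 with a mean-variance trend, two-sided. The background level of an array is the distance of its 5th percentile below 0. Of the probe sets, 10833 had 1 symbol, 396 several and 1193 none in the annotation supplied for the array, and a gene's brightest probe set with 1 symbol stands for it. The 41 lists hold 1125 distinct genes, of which 898 are on the array; members that fell under the filter, such as Podxl, Ret and Aqp2, were not tested. Members and lists were chosen with earlier results of these data known.

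Named genes were the 4 markers, the 3 genes of the series text, 12 bright called genes in each direction, ranked by change, whose groups do not overlap, and the 4 most changed called members of each list; further members were named after their values were seen. Alternatives were other pseudocounts, no normalization (the deposited scale), 75th percentile scaling, normalization of 6 arrays, other filters, no trend, array weights, 6 or 12 arrays in the fit, a 2-fold threshold, a replicate block, averaging probe sets per gene, and leaving out each array. On simulated data of 9316 probe sets, changes of 1, 2 and 3 log2 units were recovered for 32.8%, 88.1% and 90.9% of 67, 67 and 66 probe sets, with 3 false calls. Figures were drawn with matplotlib 3.10.9.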

Additional observations from a re-analysis of the deposited data

How the results depend on the processing

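Of 149 named genes, 118 kept their direction and side of the threshold under the alternatives in which they had a value (116 had one with the filter at the 50th percentile and 143 with probe sets averaged per gene, a choice added for single genes after seeing the data), 30 lost their call under at least 1, and Pax8 turned sign, at -0.17 on the deposited scale and -0.046 without pooled S-shaped body replicate 3 (0.21 in the fit as reported, up to 0.52 without pooled S-shaped body replicate 1). Most of the 149 were picked for the size of their change, which favours stable calls. Members named later, such as Synpo and Kdr, are outside this count. No called probe set took the opposite call in the other settings, but with probe sets averaged 6 of 2568 called genes did: Peg3, Clcn3, Fam32a, Macroh2a1 and Ddx6 were higher and Ctse lower. The main counts were 1698 probe sets higher and 1862 lower. On the deposited scale they were 969 and 2948, so that 24.7% of calls were higher, against 47.7%, and the median change of all probe sets was -0.46, against -0.07. With a 2-fold threshold 1144 probe sets were higher and 1134 lower. Leaving out 1 array gave 1379 to 1779 higher and 1480 to 1938 lower. Same-numbered arrays did not deviate together (correlations of -0.05, 0.02 and 0.03), so the replicate block, with 1769 higher and 1889 lower, is given here alone; not every array correlated best with its own number. Among ureteric bud and collecting duct genes 1 member was higher, against 0, with a pseudocount of 10% of the median, on the deposited scale, with 6 arrays normalized or fitted, with array weights and with the block, and 0 to 1 when 1 array was left out. Junction genes had 1 higher, against 2, on the deposited scale, with no filter, with 12 arrays and with probe sets averaged per gene, and 1 to 2 when 1 array was left out. Podocyte genes had 1 lower, against 0, on the deposited scale, and endothelial genes 1 lower, against 0, there and with probe sets averaged per gene. When 1 array was left out, higher endothelial genes numbered 27 to 29, higher podocyte genes 12 to 13, lower ureteric bud genes 17 to 22 and lower junction genes 17 to 19. Counts of 1 or 2 calls in 1 direction, as among proximal tubule, macrophage, retinoid, integrin and respiratory chain genes, moved by up to 2 when 1 array was left out. The causes were not tested. Dim signal limits the smaller folds: genes under background in 1 group have a bound only.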

Other observations

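Later tubule genes passed in both directions, few of them in the proximal list. Over all genes, 18.6% were called higher and 21.2% lower. Of 17 proximal tubule genes tested, 2 passed as higher and 2 as lower, leaving 13 uncalled. Dab2, an adaptor of endocytosis, read 8.30, 8.06 and 8.07 in S-shaped bodies, against 5.90, 6.27 and 5.87 in collecting duct (log2 change 2.13 ± 0.28, adjusted p = 1.59e-04), while Ass1, of the urea cycle, was at least 2.39-fold lower (adjusted p = 0.00166). The endocytic receptor Lrp2 and the transporter Slc34a1 did not pass (-0.47 and -0.03). Of 9 genes of the distal tubule and loop of Henle, 3 passed as higher and 3 as lower, leaving 3 uncalled. Without S-shaped body replicate 2, 1 was lower. Irx3, an Iroquois factor, read 6.23, 6.37 and 6.75 in S-shaped bodies, against 3.98, 5.14 and 4.97 in collecting duct (log2 change 1.75 ± 0.32, adjusted p = 0.00136).

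Macrophage and nerve cell genes passed in both directions, beside 18.6% higher and 21.2% lower over all genes. Of 24 macrophage and leukocyte genes on the array, 11 were tested. Among these, 2 passed as higher and 1 as lower, leaving 8 uncalled. Ctss, a cathepsin of macrophages, read 6.42, 6.97 and 6.63 in S-shaped bodies, against 2.85, 2.85 and 3.12 in collecting duct (at least 3.93-fold higher, adjusted p = 7.73e-06), and Cd14, a coreceptor for lipopolysaccharide, changed by -1.29 (adjusted p = 4.98e-04). The summed normalized intensity of that list was 620.0 to 681 on S-shaped body arrays and 481 to 682 on collecting duct arrays. Of 9 genes of neurons and glia, 1 passed as higher and 2 as lower, leaving 6 uncalled. Gap43, a growth cone protein, read 8.12, 7.49 and 6.79 in S-shaped bodies, against 4.75, 3.96 and 4.90 in collecting duct (log2 change 2.93 ± 0.36, adjusted p = 8.31e-05), and Tubb3, a neuronal tubulin, changed by -1.33 (adjusted p = 2.99e-04). Erbb3, named above and also in that list, was the other lower one (-3.88, adjusted p = 1.97e-06).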
